A study of Rattus norvegicus with 6 samples.

Results

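Mitochondrial ribosomal protein genes encode the protein subunits of the ribosome inside mitochondria. They were taken here as every probe set of the Affymetrix rat expression array used that the platform annotation ties to a single gene symbol beginning with Mrpl or Mrps, followed by a number and at most 1 letter. The rule thus picks members by name and uses no measured value, though it was set with earlier results of these data known. The rule found 97 probe sets for 73 genes, out of 31042 probe sets and 14217 genes with a symbol on the array. Each gene was read through its brightest probe set, the one with the highest mean log2 signal over all arrays. A list of 77 subunits from the mammalian structures served for roles, and Mrpl9, Mrpl11, Mrpl24 and Mrps10 of that list were not analysed here.

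The samples were primary astrocyte cultures from rat spinal cord, grown to confluence and held in supplemented L15 medium for 24 hours before RNA extraction. The SOD1-G93A group had 3 arrays, from rats carrying hSOD1G93A, human superoxide dismutase 1 with a substitution that causes familial amyotrophic lateral sclerosis. The NonTG group had 3 arrays from nontransgenic rats. Each group has samples A, B and C. The strain, the age of the animals, the promoter of the transgene and the number of animals behind a culture were not given in the sources used here. Nothing in the labels ties the samples to separate cultures. The p-values therefore cover no more than the variation among these 6 arrays, part or all of which may be technical.

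The mitochondrial ribosome translates the few messages of mitochondrial DNA, all of which encode subunits of the respiratory chain and ATP synthase. Its RNAs come from mitochondrial DNA, while its proteins are made from nuclear genes in the cytosol and imported. The large subunit (mostly Mrpl genes) joins amino acids, and the small subunit (mostly Mrps genes) holds the message and reads it. Many subunits descend from bacterial ribosomal proteins, and others occur only in mitochondria. Mrps18a and Mrps30 carry small-subunit names, but the mammalian structures place both in the large subunit, and they are counted there.

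Signals are MAS5 intensities scaled to the same trimmed mean of 500 on every array, with array medians of 128.8 to 136.3. All 9 astrocyte markers on the array, such as Gfap, Aqp4 and Gja1, were above the filter on dim probe sets, against 1 of 8 microglia and 1 of 5 endothelial markers. Of the markers of other cells, 7 of 8 for neurons, 6 of 6 for fibroblasts, 5 of 6 for pericytes and smooth muscle and 5 of 8 for the oligodendrocyte lineage were also above it. The neuron markers summed to 4247 to 4949 in SOD1-G93A and 4127 to 4520 in NonTG. Rat Sod1 gave signals of 9781, 10860 and 10510 in SOD1-G93A against 8982, 8855 and 9430 in NonTG. Its difference was 0.19 (SE 0.069, limma's adjusted p = 0.9997). Whether its probe set detects the human transcript was not tested.

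In this comparison, the question was whether messages for the mitochondrial ribosome differ in astrocytes carrying mutant SOD1. No member passed limma's test: 0 of 73 had an adjusted p under 0.05, where 0% of all 18625 tested probe sets did, and the smallest adjusted p of a member was 0.9997. At an unadjusted p under 0.05, limma counted 0 of 73 members, against 2.54% of all tested probe sets. With 1 probe set per gene, as for the members, the share was 2.64% (1.35% higher and 1.29% lower). The log2 differences (SOD1-G93A minus NonTG) ran from -0.14 for Mrps33 to 0.25 for Mrps27. Their median was 0.024, with quartiles of -0.041 and 0.084, beside a median of 0.0070 over all tested probe sets. The difference was above 0 for 42 of 73 members and for 52% of all tested probe sets, or 51% with 1 per gene. A change in RNA per cell and a change in the mix of cells cannot be told apart in such bulk samples.

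These genes were measured more tightly than most of the array. All 73 were above the filter on dim probe sets, a mean signal of 66.7, and their mean log2 signals ran from 8.17 to 12.86. The 95% interval of the difference stayed inside 1.5-fold, up or down, for 73 of 73 members, against 63.6% of all tested probe sets. Brighter probe sets had smaller errors in general: among 7180 genes in the members' range of signal, 88.5% had such an interval. The median standard error was 0.097 for the members and 0.12 for those genes. Within that range the members were also brighter, with a median log2 signal of 10.36 against 9.766. Whether signal accounts for the remaining gap was not tested. For the brightest probe set of each gene, a change of 1.5-fold or more thus lay outside the interval, and no change lay inside it. Dimmer probe sets of some genes had intervals that reached past 1.5-fold, such as -0.20 to 1.56 for Mrpl12 and -0.93 to 0.31 for Mrps27.

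**Figure D1:**
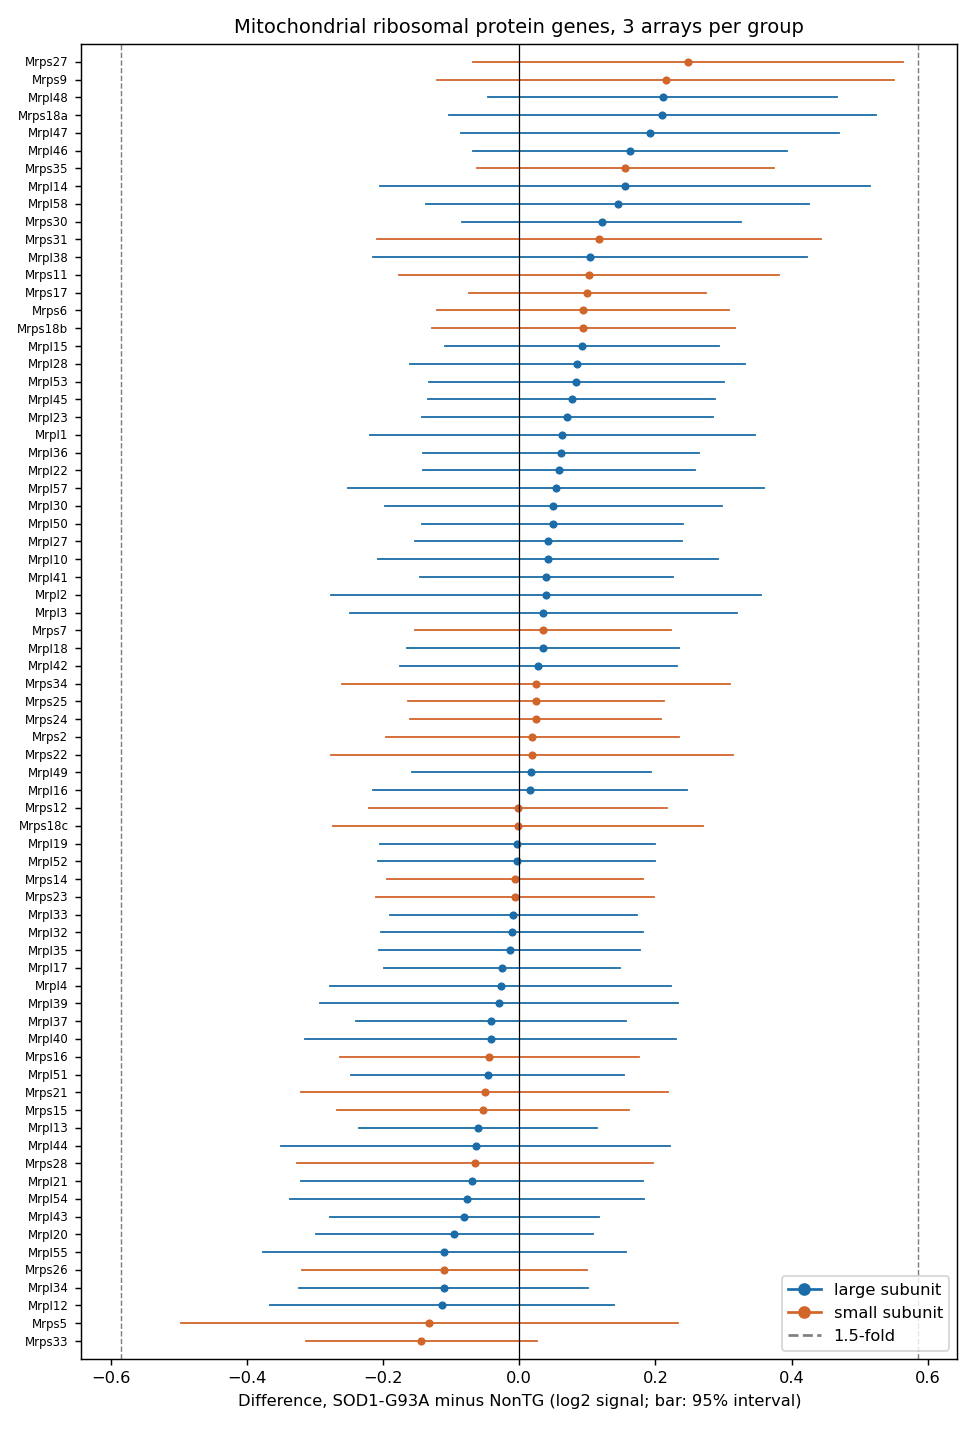
Difference between SOD1-G93A and NonTG (log2 signal, x axis) for each of the 73 genes, 1 per row, with its 95% interval from limma, coloured by subunit. All 73 intervals lie inside the dashed lines at 1.5-fold and all of them include 0.

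One array stood apart in the level of the whole family. SOD1-G93A B gave the highest of the 6 signals for 33 of 73 members, or 45.2%, against 22.4% of all tested probe sets. For each array, the median over members of the log2 signal minus the gene's mean over the 6 arrays was taken. It was -0.011, 0.085 and -0.044 on SOD1-G93A A, B and C, against -0.0034, 0.0095 and -0.027 on NonTG A, B and C. SOD1-G93A B was the highest and SOD1-G93A C the lowest, so the NonTG arrays lay inside the range of the SOD1-G93A arrays. The large subunit was at 0.0018, 0.076 and -0.042 in SOD1-G93A, and the small subunit at -0.025, 0.10 and -0.049, the same order in both. Without SOD1-G93A B the median difference of the members was -0.0099 and 32 of 73 were higher.

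SOD1-G93A B also had the lowest summed signal of pericyte and smooth muscle markers, 17220, against 28439 and 24538 on SOD1-G93A A and C and 23119 to 28768 in NonTG. The sum of the fibroblast markers was 38219 there, against 49928 and 44361 on the other SOD1-G93A arrays and 46991 to 50283 in NonTG. All 6 fibroblast markers and 5 of the 6 pericyte and smooth muscle markers were above the dim filter. Oligodendrocyte lineage markers, 5 of 8 of them above the filter and Mog, Olig2 and Sox10 below it, summed to 7568 on SOD1-G93A B, against 6011 and 5637 on SOD1-G93A A and C and 5175 to 5808 in NonTG. The astrocyte markers summed to 106118 on SOD1-G93A B, inside the NonTG range of 95633 to 107031. Microglia and endothelial markers had their highest sums there, 425 and 396, with 1 of 8 and 1 of 5 markers above the filter. The part of these cells in the level of the ribosomal genes was not tested.

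**Figure D2:**
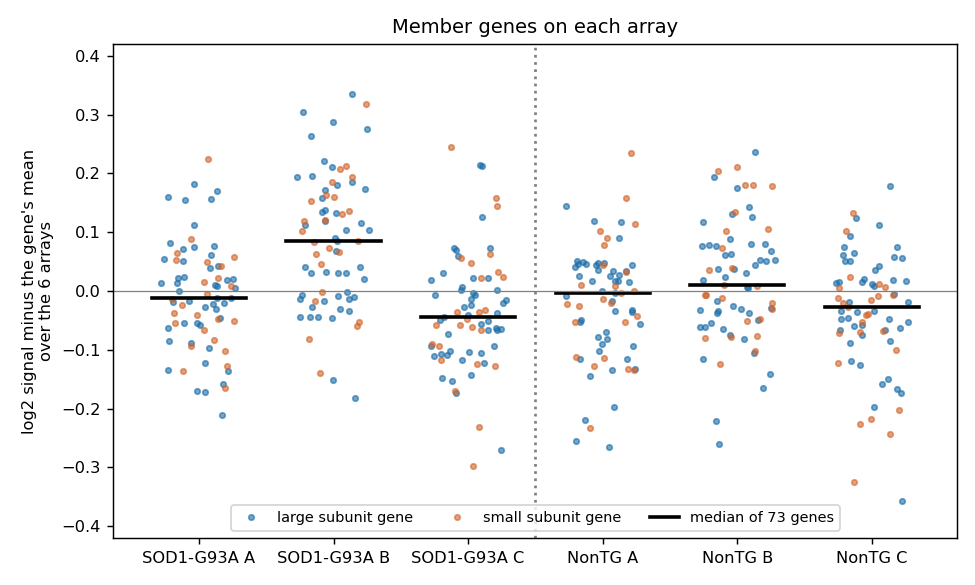
The log2 signal of each member minus its mean over the 6 arrays (y axis), by array, with SOD1-G93A on the left and NonTG on the right; points are genes and black lines are medians. The median of SOD1-G93A B, at 0.085, is the highest, and that of SOD1-G93A C, at -0.044, the lowest.

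Deviations from group means correlated at 0.199 to 0.297 between arrays of the same letter, so the difference was also taken within each letter. The members' median difference was 0.019 within A, 0.052 within B and -0.018 within C. The number higher in SOD1-G93A was 41, 48 and 33 of 73. Within A the subunits parted: 31 of 48 large subunit genes were higher, against 10 of 25 small subunit genes. They did not part in this way within B, with 32 and 16, or within C, with 21 and 12. In all 3 letters 14 members, or 19.2%, were higher and 5, or 6.85%, were lower, against 13.5% and 12.2% of all tested probe sets. With the letter as a block, limma's unadjusted p was under 0.05 for 1 member, Mrps18a (0.046), against 5.85% of all tested probe sets (2.85% higher and 3% lower), and its adjusted p was 0.83.

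Short sequence motifs known for nuclear genes of mitochondria were looked for in the promoters of the members. The regulators best known for such genes are NRF1, the ETS factor GABP and YY1, whose binding letters were searched on both strands of RefSeq promoters (build GRCr8, 250 bases before to 50 after the start site). Promoters were in the table for 59 of the 73 members. The ETS letters CCGGAAG were in 20 of 59 member promoters, or 33.9%, against 18.5% of 8751 promoters of tested genes and 9.22% of all 27457. The YY1 letters AAGATGGC were in 14, or 23.7%, against 5.76% and 3.44%. The NRF1 letters GCATGCGC were in 5, or 8.47%, against 5.26% and 2.66%. The letters TATAAA were in 7, or 11.9%, against 6.39% and 14.3%. All matches of the members to these letters began between 250 and 82 bases before the start site.

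**Figure D3:**
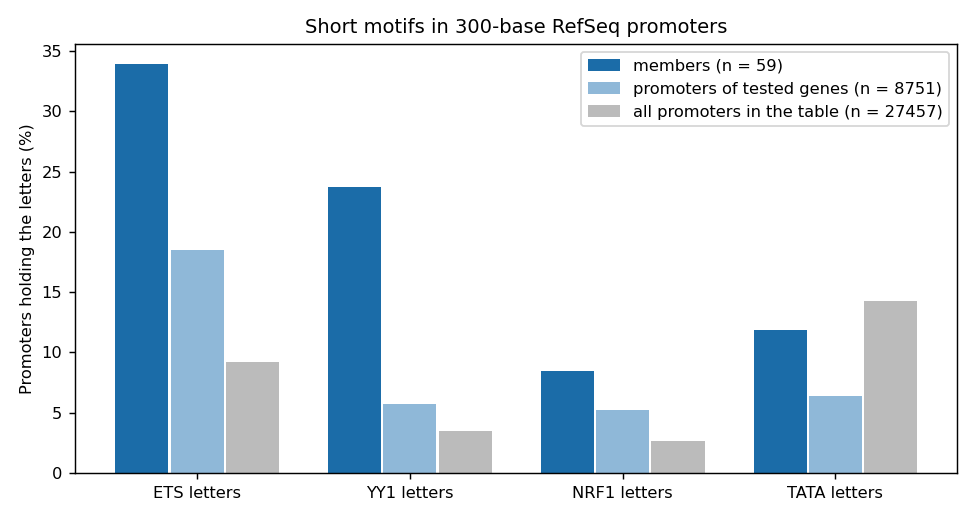
Percentage of promoters that hold each set of letters on either strand (bars from 0), for 59 members, 8751 tested genes and all 27457 promoters. The YY1 bar of the members, at 23.7%, is the farthest above that of tested genes, at 5.76%.

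Of 14 matches to the YY1 letters, 12 began between 20 bases before and 30 bases after the start site. Of 22 matches to the ETS letters, 21 began between 100 bases before and 30 after it. The YY1 letters contain ATG, and whether a match holds the gene's start codon was not tested. The sequences that follow run 5′ to 3′ on the gene's strand, from 100 bases before to 50 after the start site. Capitals mark matches to the ETS, YY1 or NRF1 letters on either strand. Mrps27, Mrps18a, Mrps18b and Mrpl36 are shown because they hold both ETS and YY1 letters in this window. Mrpl46 is shown because it starts 234 bases from another member, on the other strand. Mrpl17 and Mrpl32 are shown for NRF1 letters, which read almost alike on both strands and so can overlap, and Mrps33, the member with the lowest difference, for a window without any of the 3. Their positions are chr2:32474104-32474253 (plus strand) for Mrps27, chr9:22367331-22367480 (minus) for Mrps18a, chr20:2842906-2843055 (plus) for Mrps18b, chr1:31795072-31795221 (minus) for Mrpl36 and chr1:142116981-142117130 (minus) for Mrpl46. Those of Mrpl17, Mrpl32 and Mrps33 are chr1:169575650-169575799 (minus), chr17:55260551-55260700 (plus) and chr4:69566889-69567038 (minus).
Mrps27: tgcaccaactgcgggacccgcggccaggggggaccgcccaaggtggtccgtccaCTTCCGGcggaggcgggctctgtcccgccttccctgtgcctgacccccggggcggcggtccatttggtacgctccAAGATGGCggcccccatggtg
Mrps18a: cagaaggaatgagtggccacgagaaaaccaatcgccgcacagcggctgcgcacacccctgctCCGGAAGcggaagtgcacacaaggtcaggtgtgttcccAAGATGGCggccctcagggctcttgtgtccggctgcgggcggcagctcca
Mrps18b: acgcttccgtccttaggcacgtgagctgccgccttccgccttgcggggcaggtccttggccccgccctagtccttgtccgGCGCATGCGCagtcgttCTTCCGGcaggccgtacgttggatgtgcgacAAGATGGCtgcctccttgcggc
Mrpl36: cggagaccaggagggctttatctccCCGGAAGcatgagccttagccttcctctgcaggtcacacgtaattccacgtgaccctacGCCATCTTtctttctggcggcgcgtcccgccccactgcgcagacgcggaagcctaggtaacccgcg
Mrpl46: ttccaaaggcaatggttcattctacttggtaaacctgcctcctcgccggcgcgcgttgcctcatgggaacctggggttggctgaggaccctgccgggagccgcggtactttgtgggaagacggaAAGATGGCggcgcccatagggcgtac
Mrpl17: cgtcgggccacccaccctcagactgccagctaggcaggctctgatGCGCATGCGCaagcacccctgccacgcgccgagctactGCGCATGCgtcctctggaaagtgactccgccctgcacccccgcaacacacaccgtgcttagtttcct
Mrpl32: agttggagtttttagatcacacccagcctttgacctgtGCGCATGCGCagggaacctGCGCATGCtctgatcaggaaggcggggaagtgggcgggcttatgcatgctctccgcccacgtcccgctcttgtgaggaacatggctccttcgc
Mrps33: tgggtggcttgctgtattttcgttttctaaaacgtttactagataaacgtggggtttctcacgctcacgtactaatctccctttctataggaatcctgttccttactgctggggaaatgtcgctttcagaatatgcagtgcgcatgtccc

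The differences of the members with and without each set of letters were compared as a description. The 14 members with YY1 letters had a median difference of 0.077, with 12 of 14 higher in SOD1-G93A, and the 45 without had 0.019, with 23 higher. With ETS letters the median was 0.052 over 20 members, and without them 0.024 over 39. With NRF1 letters it was -0.010 over 5, and without them 0.035 over 54. The 5 members with both ETS and YY1 letters, which were Mrps27, Mrpl48, Mrps18a, Mrps18b and Mrpl36, had differences of 0.061 to 0.25. This grouping was made after the values were seen and was not tested.

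Many members lie back to back with another gene. Whether the region between the start sites serves both directions was not tested. Among the RefSeq promoters, 18 of 59 members, or 30.5%, had a start site on the other strand, facing away, within 1000 bases, against 16.5% of tested genes and 10.4% of all promoters. One such pair holds members of both subunits: Mrpl46 and Mrps11 start 234 bases apart on chromosome 1. Their differences were 0.16 (SE 0.10) and 0.10 (SE 0.12). Mrps27 starts 91 bases from Ptcd2, a mitochondrial RNA-binding protein, and they differed by 0.25 (SE 0.14) and 0.28 (SE 0.23). Mrpl47 starts 244 bases from Ndufb5, a subunit of respiratory complex I, with differences of 0.19 (SE 0.12) and 0.028 (SE 0.11). Mrpl32 starts 210 bases from Psma2, a proteasome subunit, with differences of -0.010 (SE 0.086) and 0.020 (SE 0.073). Counting Mrpl46 and Mrps11 once, both genes were tested in 13 separate pairs, and the sign was the same in 6 of the 13. Mrpl2 and Klc4 differed by 0.039 (SE 0.14) and -0.17 (SE 0.11), and Mrpl40 and Hira by -0.042 (SE 0.12) and 0.15 (SE 0.13), with opposite signs. The pairs described by name were chosen after their values were seen, while the 13 follow from strand and distance.

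By subunit, the 48 large subunit genes had a median difference of 0.035, with 28 higher, and the 25 small subunit genes had 0.019, with 14 higher. Neither held a member that passed the test. The 28 large subunit genes with a bacterial relative and the 20 found only in mitochondria had medians of 0.035 and 0.034. In the small subunit the 16 with a bacterial relative had 0.0087 and the 9 found only in mitochondria had 0.024. Whether these medians differ was not tested.

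The groups did not overlap for 6 members, 4 higher and 2 lower in SOD1-G93A, or 8.22%, against 7.51% of all tested probe sets (4% higher and 3.51% lower). With 1 probe set per gene the share was 7.52% (3.73% higher and 3.79% lower). The 4 higher ones were Mrps27, Mrps35, Mrpl46 and Mrpl47, and the 2 lower ones were Mrps33 and Mrps26. The 4 of them in the small subunit are all among its 9 mitochondria-specific proteins, 2 higher and 2 lower. This grouping was made after the values were seen and was not tested.

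Mrps27, an RNA-binding protein of the small subunit, had signals of 326, 335 and 375 in SOD1-G93A and 315, 290 and 267 in NonTG. The lowest SOD1-G93A signal lay just above the highest NonTG one. Its difference was 0.25 (SE 0.14, 95% interval -0.068 to 0.56), or 1.19-fold. Its other tested probe sets gave differences of -0.11 (SE 0.16) and -0.31 (SE 0.28), so the higher value was seen in 1 of 3.

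Mrps35, another small subunit protein without a bacterial relative, was at 831, 893 and 821 in SOD1-G93A and 742, 761 and 780 in NonTG. Its difference was 0.16 (SE 0.097, 95% interval -0.062 to 0.37). Every SOD1-G93A array was above every NonTG array, by a margin smaller than the spread within SOD1-G93A.

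Mrpl46 and Mrpl48 both belong to the central protuberance, the crest of the large subunit that faces the small one. Mrpl46 was at 743, 795 and 704 in SOD1-G93A and 680, 674 and 647 in NonTG, a difference of 0.16 (SE 0.10, 95% interval -0.069 to 0.39). Mrpl48 was at 823, 1058 and 953 in SOD1-G93A and 807, 826 and 804 in NonTG, a difference of 0.21 (SE 0.11, 95% interval -0.046 to 0.47). The NonTG signals of Mrpl48 lay close together, and SOD1-G93A A lay among them. Without SOD1-G93A B its difference was 0.13.

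The peptide exit is the end of the tunnel through which the new chain leaves the large subunit towards the inner membrane. Several members lie at or near it. Mrpl47, the relative of bacterial L29, was at 578, 574 and 652 in SOD1-G93A and 572, 469 and 541 in NonTG. The groups were separated by the gap between SOD1-G93A B and NonTG A, 574 against 572. Its difference was 0.19 (SE 0.12, 95% interval -0.086 to 0.47), and 0.11 without NonTG B. Mrpl22, Mrpl23 and Mrpl45, the last of which ties the ribosome to the inner membrane, differed by 0.059 (SE 0.088), 0.070 (SE 0.095) and 0.077 (SE 0.094). Mrpl17, Mrpl39 and Mrpl44 of the same region differed by -0.025 (SE 0.077), -0.030 (SE 0.12) and -0.064 (SE 0.13), so the region held differences of both signs. Apart from Mrpl47 and Mrpl17, these genes were named for their place after their values were seen.

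The factor-binding stalk recruits elongation factors to the large subunit. Mrpl12, the relative of bacterial L7/L12, was at 1898, 1498 and 1533 in SOD1-G93A and 1846, 1628 and 1836 in NonTG, a difference of -0.11 (SE 0.11). SOD1-G93A A was the highest of the 6 arrays, and the groups overlapped. Mrpl10, which anchors Mrpl12, differed by 0.042 (SE 0.11), Mrpl53 by 0.084 (SE 0.096) and Mrpl54 by -0.077 (SE 0.12). Of these 4 genes 2 were thus higher and 2 lower. Mrpl10, Mrpl53 and Mrpl54 were named for their place after their values were seen.

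Mrps33 and Mrps26, both mitochondria-specific proteins of the small subunit, had the members' smallest unadjusted p on the lower side, by the brightest probe sets. Mrps33 was at 2325, 2409 and 2394 in SOD1-G93A and 2514, 2685 and 2678 in NonTG. Its difference was -0.14 (SE 0.075, 95% interval -0.31 to 0.026), or 0.905-fold. Its unadjusted p of 0.088 by limma was the smallest over the brightest probe sets of the members. A dimmer probe set of Mrpl57 had 0.086 by limma. Mrps26 was at 852, 841 and 837 in SOD1-G93A and 940, 922 and 870 in NonTG, a difference of -0.11 (SE 0.093, 95% interval -0.32 to 0.099). In both genes all 3 SOD1-G93A arrays were below all 3 NonTG arrays.

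The Mrps18 genes are related copies of the gene for bacterial S18, and their products sit at different places of the ribosome. Mrps18a, in the large subunit, was at 1393, 1734 and 1340 in SOD1-G93A and 1375, 1418 and 1073 in NonTG. Its difference was 0.21 (SE 0.14), 0.095 without SOD1-G93A B and 0.083 without NonTG C. SOD1-G93A was above NonTG within each letter, by 0.019 in A, 0.29 in B and 0.32 in C. Mrps18b differed by 0.094 (SE 0.099) and Mrps18c, the copy at the place of bacterial S18, by -0.0023 (SE 0.12). The intervals of the 3 genes overlap, and the differences between them were not tested.

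**Figure D4:**
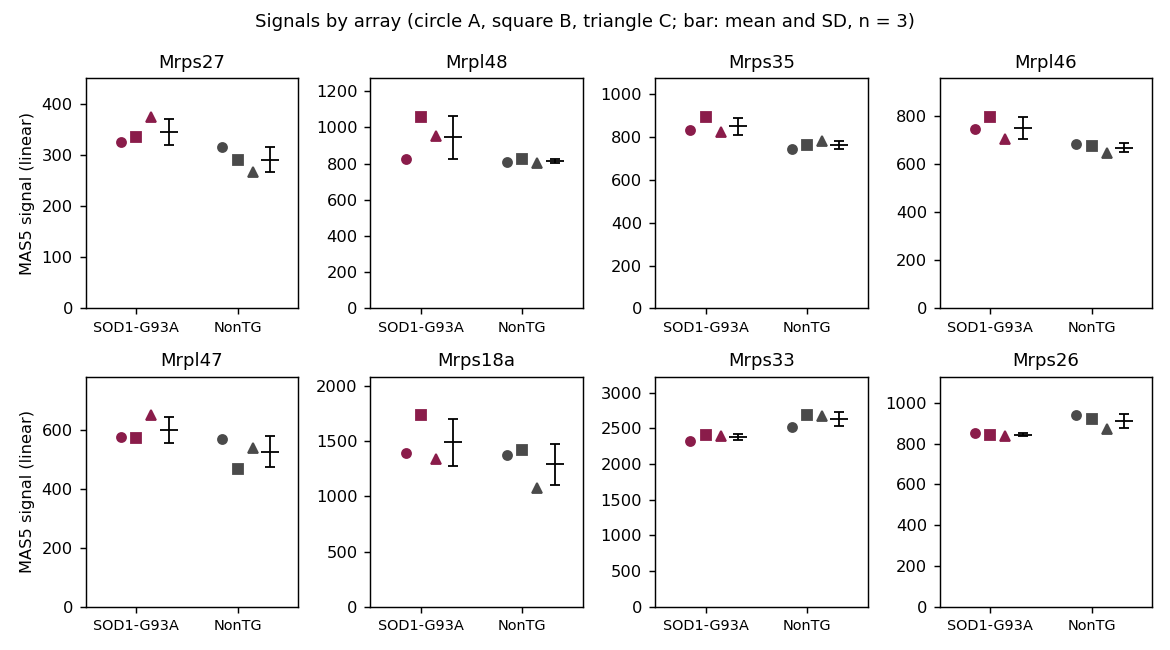
MAS5 signals (linear scale, y axis from 0) of 8 members on the 3 SOD1-G93A and 3 NonTG arrays, with circles for A, squares for B and triangles for C and the mean and SD beside them (n = 3). The groups are separated for Mrps27, Mrps35, Mrpl46, Mrpl47, Mrps33 and Mrps26 and overlap for Mrpl48 and Mrps18a.

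Among the other genes with the smallest p, Mrps9, a relative of bacterial S9, was at 669, 864 and 721 in SOD1-G93A and 633, 761 and 553 in NonTG. Its difference was 0.22 (SE 0.15), with overlap between the groups. It was 0.11 without SOD1-G93A B, 0.11 without NonTG C and 0.34 without NonTG B. Mrps30 of the large subunit differed by 0.12 (SE 0.091). On the lower side, Mrps5, a relative of bacterial S5, which takes part in the accuracy of decoding, was at 742, 906 and 644 in SOD1-G93A and 932, 898 and 681 in NonTG, a difference of -0.13 (SE 0.16). Leaving out SOD1-G93A C gave -0.016 and leaving out NonTG C gave -0.27. Mrpl34, Mrpl55, Mrpl20 and Mrpl43 of the large subunit differed by -0.11 (SE 0.094), -0.11 (SE 0.12), -0.095 (SE 0.090) and -0.080 (SE 0.087). None of these separated the groups.

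The 3 brightest members of each subunit came next. Signals of different probe sets are not amounts that can be set against each other. Mrpl17 of the large subunit was at 7375, 7887 and 6891 in SOD1-G93A and 7086, 7704 and 7739 in NonTG, a difference of -0.025 (SE 0.077, 95% interval -0.20 to 0.15). Mrps6, whose bacterial relative binds S18, was at 4927, 6171 and 6105 in SOD1-G93A and 5325, 5234 and 5478 in NonTG, a difference of 0.094 (SE 0.095). In both genes the NonTG arrays lay within the range of the SOD1-G93A arrays. Mrps17 differed by 0.10 (SE 0.077), Mrps14 by -0.0062 (SE 0.084), Mrpl41 by 0.040 (SE 0.082) and Mrpl27, a protein close to the site of peptide bond formation, by 0.043 (SE 0.087).

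Human families with combined deficiency of oxidative phosphorylation carry mutations in several of these genes. The 5 such genes given here were chosen after their values were seen and are not a full list. Mrps22 differed by 0.019 (SE 0.13), Mrps16 by -0.044 (SE 0.097), Mrps34 by 0.025 (SE 0.13), Mrpl3 by 0.035 (SE 0.13) and Mrpl44 by -0.064 (SE 0.13). All 5 differences were smaller than their standard errors.

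Several genes were read by more than 1 probe set, and these did not always give the same difference. Of the 73 genes 18 had at least 2 probe sets and 14 had at least 2 above the dim filter. The spread between probe sets of a gene ran from 0.029 for Mrps18c to 0.79 for Mrpl12. The second probe set of Mrpl12 was dim, at 68.8, 126 and 79.8 in SOD1-G93A and 37.4, 80.9 and 55.6 in NonTG, and differed by 0.68 (SE 0.39), opposite in sign to the bright one. The 4 probe sets of Mrpl51 differed by -0.046 (SE 0.089), 0.096 (SE 0.089), 0.059 (SE 0.15) and -0.30 (SE 0.20), from bright to dim. Those of Mrpl57 differed by 0.054 (SE 0.14) and -0.27 (SE 0.14), and those of Mrps2 by 0.019 (SE 0.095), -0.18 (SE 0.14) and 0.11 (SE 0.36). With all tested probe sets of a gene averaged, the median difference of the members was 0.028 and 44 of 73 were higher.

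**Figure D5:**
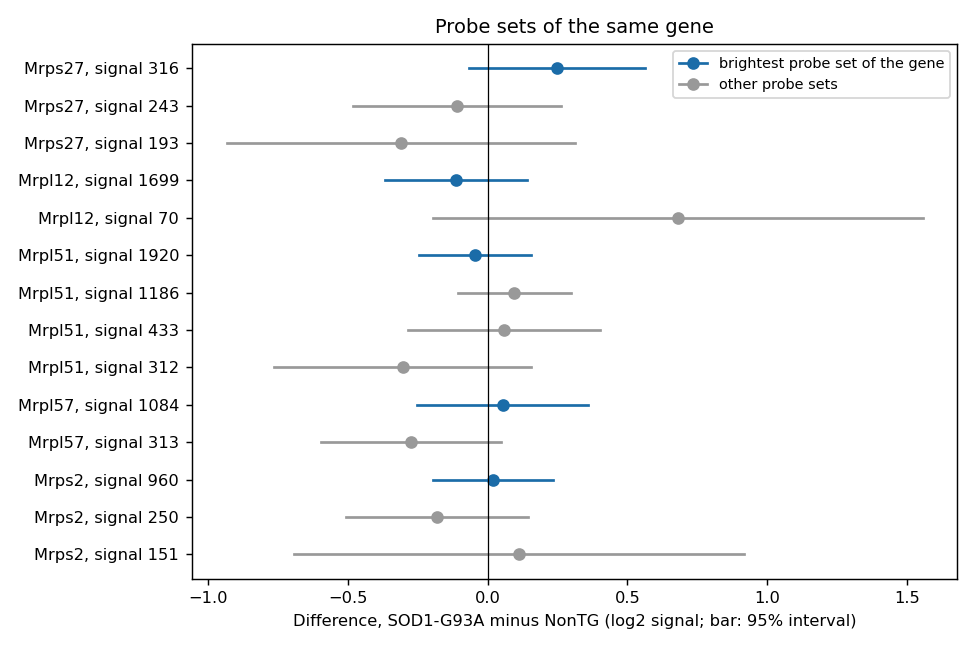
Difference between SOD1-G93A and NonTG with its 95% interval (log2 signal, x axis) for each tested probe set of the 5 genes whose probe sets differed most, labelled with the geometric mean signal over the 6 arrays. The dimmer probe sets have the wider intervals, and in all 5 genes the sign differs between probe sets.

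The genes around the ribosome were read from lists of known function. Their counts stand beside 52% of all tested probe sets above 0, or 51% with 1 per gene. Higher without overlap were 1 of 11 translation factors, 2 of 14 synthetase and amidotransferase genes and 1 of 17 mitochondrial DNA genes. Over all tested probe sets 4% were higher without overlap. Whether a list differs from all genes was not tested. Of 11 tested translation factors 9 were higher, with a median difference of 0.091, 0 passed the adjusted test in either direction, and 0 had an unadjusted p under 0.05. Gfm1, an elongation factor, was at 742, 854 and 771 in SOD1-G93A and 728, 651 and 676 in NonTG, a difference of 0.20 (SE 0.11). Mtif2, the initiation factor, differed by 0.16 (SE 0.14), and by 0.037 without NonTG B.

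Of 21 tested genes of ribosome assembly and ribosomal RNA modification 14 were higher, with a median of 0.058, and 0 passed the adjusted test in either direction. At an unadjusted p under 0.05, 1 was higher, against 1.34% of all tested probe sets, and 0 lower, against 1.2%. That one was Noa1, a GTPase of small subunit assembly, at 281, 316 and 282 in SOD1-G93A and 225, 246 and 222 in NonTG, a difference of 0.34 (SE 0.14, 95% interval 0.014 to 0.67, limma's adjusted p = 0.9997). Fastkd2, an RNA-binding protein needed for the large subunit, was at 393, 362 and 357 in SOD1-G93A and 308, 309 and 304 in NonTG, a difference of 0.27 (SE 0.13). In both genes the groups did not overlap. These were 2 of the 21, where 4% of all tested probe sets were higher without overlap and 3.51% lower.

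Mitochondrial aminoacyl-tRNA synthetases and the related amidotransferase subunits, which load amino acids on tRNAs, were higher for 10 of 14, with a median of 0.086, and 0 passed the adjusted test. Iars2, the isoleucine enzyme, was at 513, 580 and 553 in SOD1-G93A and 459, 417 and 437 in NonTG, a difference of 0.33 (SE 0.12, limma's adjusted p = 0.9997), and was the only one of the 14 with an unadjusted p under 0.05 (0.020), where 1.34% of all tested probe sets were higher at that threshold and 1.2% lower. Qrsl1, an amidotransferase subunit, differed by -0.30 (SE 0.18), and by -0.18 without NonTG C. On SOD1-G93A B, where 7 of the 14 had their highest signal, the list's value was 0.17, against 0.020 and 0.022 on SOD1-G93A A and C and -0.087 to 0.020 in NonTG.

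Genes for the expression and upkeep of mitochondrial DNA were higher for 11 of 17, with a median of 0.024, and 0 passed the adjusted test. Polrmt, the mitochondrial RNA polymerase, differed by 0.48 (SE 0.25), and by 0.24 without SOD1-G93A B. Tfam, which packs and transcribes mitochondrial DNA, differed by 0.20 (SE 0.11), and by 0.12 without SOD1-G93A B. Of the 8 tested regulators of genes for mitochondria 4 were higher and 4 lower, with a median of 0.0094 and 0 past the adjusted test. Among them Myc, a growth regulator, differed by -0.49 (SE 0.23) and Gabpb1, a subunit of GABP, by 0.16 (SE 0.13), which was 0.067 without NonTG B and 0.25 without NonTG A. Of the 5 subunits of the mitochondrial ribosome with other names 4 were lower, with a median of -0.067 and 0 past the adjusted test. Aurkaip1, of the small subunit, was at 2155, 2031 and 1974 in SOD1-G93A and 2269, 2177 and 2292 in NonTG. Its difference was -0.13 (SE 0.079). It was the only one of the 5 without overlap, where 3.51% of all tested probe sets were lower without overlap and 4% higher. Gadd45gip1, of the large subunit, differed by -0.15 (SE 0.11), by -0.061 without NonTG A and by -0.097 without SOD1-G93A C.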

How the data were processed

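Expression was measured in 3 SOD1-G93A and 3 NonTG samples with 1 array each. The deposited values are linear intensities for each probe set. The authors used MAS5 (GCOS 1.4), as the submitters' processing notes list. The design text speaks of GC-RMA and log values, which these are not. Of 31099 probe sets, 57 controls were left out, and 20826 of the others had 1 gene symbol. Precision is limited by having 3 arrays per group.

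The log2 of each intensity was taken without a pseudocount. Probe sets with a mean log2 value at or below the 40th percentile were left out as dim, leaving 18625. The groups were compared with limma 3.58.1 (R 4.3.3), by lmFit and a trended eBayes. Two-sided p-values were adjusted by Benjamini-Hochberg over all tested probe sets, with 0.05 as the threshold. The fit was tested on simulated data. The members, lists and tests were chosen with earlier results of these data known. Lists are described by counts and medians.

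Named were Sod1, the 8 members with the smallest p in each direction, the 3 brightest of each subunit, the Mrps18 genes, the 5 genes whose probe sets differed most and the 2 genes with the smallest p of each pathway list; genes named otherwise were chosen after their values were seen. Whether the letters pair the arrays was looked at on deviations from group means over the tested probe sets. The same letter correlated across groups at 0.297 (A), 0.254 (B) and 0.199 (C), and different letters at -0.277 to 0.0249. Deviations within a group sum to 0, so positive values for the same letter lower those for different letters. The gap between them is thus partly arithmetic. Alternatives changed the block, the normalization, the pseudocount, the filter, the probe set per gene, the variance model and the array weights, and left out each array. Promoters came from RefSeq, build GRCr8, and all 73 members matched its gene table by Entrez identifier.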

Additional observations from a re-analysis of the deposited data

How the results depend on the processing

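Under every alternative 0 members and 0 probe sets passed the adjusted threshold. With the letter as a replicate block the members' median difference was 0.024 and 42 of 73 were higher, as without it. Each letter occurs once in each group, so the block cannot change a difference, only its error and p-value. The median was 0.0015 with array weights and 0.028 with the mean over probe sets of a gene. Leaving out 1 array gave -0.0099 to 0.042, with 32 to 54 members higher, the lowest of both without SOD1-G93A B. It gave -0.0034 to 0.040 for the large and -0.036 to 0.045 for the small subunit. Without 1 array, 8 to 15 members, or 11% to 20.5%, did not overlap between groups, against 14.4% to 22.6% of all tested probe sets under the same settings. Of 598 differences of 40 named genes under alternatives, 22 turned sign, in 10 genes. With the mean over probe sets these were Mrps27 (-0.057), Mrpl12 (0.28), Mrps14 (0.037), Mrps18c (0.012), Mrpl57 (-0.11) and Mrps2 (-0.017). Quantile normalization turned Mrpl17 (0.012) and Mrps14 (0.012), and array weights Mrpl27 (-0.0036) and Mrps18c (0.0073). With 1 array left out, the ranges of those that turned were -0.074 to 0.024 for Mrpl17, -0.0063 to 0.080 for Mrpl41, -0.013 to 0.12 for Mrpl27, -0.042 to 0.038 for Mrps14, -0.047 to 0.067 for Mrps18c, -0.099 to 0.018 for Mrpl51, -0.065 to 0.16 for Mrpl57 and -0.036 to 0.052 for Mrps2. Of the 40 named genes, 28 moved by over 1.5 times or turned sign when some array was left out, 19 of them without SOD1-G93A B. The causes were not tested. Over all alternatives the adjusted p of the named genes was 0.7624 or higher. The number of arrays, 3 per group, limits what could be resolved.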

Other observations

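A further 6 probe sets of member genes were below the dim filter and were not tested. They belonged to Mrpl37, Mrps15, Mrps18c, Mrps22, Mrps24 and Mrps26, each of which also had a brighter probe set. Their signals ran from 2.63 to 62.8 in SOD1-G93A and from 2.35 to 84.0 in NonTG.

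The 59 members with a RefSeq promoter lay on 18 chromosomes, and 10 of them were on chromosome 10.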
